A study of Mus musculus with 3 samples.

Results

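The genes described here are 10 neuronal RNA-binding and splicing regulators: Elavl2, Elavl3, Elavl4, Nova1, Nova2, Rbfox1, Rbfox2, Rbfox3, Ptbp1 and Ptbp2. They were taken by name from 4 gene families, by a rule that uses no values but with earlier results of these data known. All 10 were found among the 41388 genes of the deposited tables. Their RNA was measured by sequencing 3 pooled libraries, called B, C and D, of dorsal root ganglion (DRG) cells from C57BL/6 mouse embryos of 12.5 days post coitum that were sorted for EGFP reporting Ret, a receptor tyrosine kinase of many sensory and autonomic neurons. Library B pooled 340 ganglia of 17 embryos, C pooled 300 ganglia of 15 embryos and D pooled 60 ganglia of 3 embryos, with both sexes in each and ganglia from spinal levels T11 to S1. The sample labels give the genotype as Tg(Ret-EGFP)SJ/, a transgene, while the series text describes a heterozygous knock-in at Ret, and the labels do not settle which. There is 1 group and no control group, so the design allows levels, ratios between paralogs within a library, and a comparison of the smallest pool, D, with the other two. Whether a low level means fewer cells of a type or less RNA per cell cannot be told apart in such bulk samples.

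The Elavl genes Elavl2, Elavl3 and Elavl4 encode the neuronal Hu proteins, which bind AU-rich and U-rich RNA, stabilise messages and act on splicing and polyadenylation. Nova1 and Nova2 encode KH-domain proteins that bind YCAY clusters, and Rbfox1, Rbfox2 and Rbfox3 encode proteins that bind UGCAUG and regulate neuronal exons; Rbfox3 is the NeuN antigen of mature neurons. Ptbp1 encodes the polypyrimidine tract binding protein of progenitors and non-neuronal cells, which represses many neuronal exons. One exon it represses lies in Ptbp2, the neural paralog, so that skipping of this exon sends the Ptbp2 message to nonsense-mediated decay, and Ptbp2 itself later declines as neurons mature.

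The 34-base exon of Ptbp2 that takes part in this cross-regulation and its homologous exon in Ptbp1 are shown. They were read from GENCODE M21 transcripts on GRCm38, 5′ to 3′, and capitals mark the positions at which the paralogs differ. Ptbp1 has its exon at chr10:79862014-79862047 on the plus strand, and Ptbp2 at chr3:119724612-119724645 on the minus strand.
Ptbp1: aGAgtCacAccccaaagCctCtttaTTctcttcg
Ptbp2: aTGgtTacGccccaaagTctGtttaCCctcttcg
The exons are identical at 26 positions and differ at 8. In both genes, every annotated transcript that skips the exon is listed as a target of nonsense-mediated decay. Each exon lies within the exons the authors counted, where it makes up 0.717% of the counted length of Ptbp1 and 1.01% of that of Ptbp2. The deposited counts are sums over a gene, so inclusion of these exons was not measured here.

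Whether reads can be told apart between paralogs bears on every ratio below. The longest exact runs shared by the annotated coding sequences of paralogs had 14 to 29 bases. Those of the pair with the steadiest ratio, of the pair with an equally long run and of the Ptbp pair were as follows, in lower case throughout because the whole run is shared.
Elavl3 and Elavl4: ttcggcttcgtcaccatgaccaactacga
Rbfox1 and Rbfox2: accgtggtagagggccgtaaaatcgaggt
Ptbp1 and Ptbp2: tacaacaatgataa
A read that covers more coding bases than these runs and matches exactly fits only one of the pair. Neither the read length nor the handling of multiply mapped reads is stated in the labels.

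The libraries held 18072199 (B), 11666241 (C) and 20966139 (D) counts. TPM scales counts by gene length and sums to the same total in each library. For the 11896 genes at 1 TPM or more in every library, D was compared with the mean of B and C in log2 TPM. The median difference over these genes was 0.65, higher in D. Of these genes, 63.1% had their highest TPM in D. The 20 most abundant genes took 21.7% (B), 26.4% (C) and 16.6% (D) of all TPM. TPM values in D are given below without correction for this shift, so their differences from B and C include it. Ratios of D to B and C from counts are given further below. Neuron markers were high in every library, with summed levels of 33800, 25912 and 21298 TPM in B, C and D, led by the tubulin gene Tubb3 and by Stmn2. Glial and Schwann precursor markers, led by Fabp7 and Ednrb, summed to 3065, 1525 and 4835 TPM, and cycling-cell markers, led by Cdk1 and Pcna, to 291, 191 and 652 TPM; all 10 glial and all 11 cycling markers passed 1 TPM in each library. Erythroid markers, led by Hbb-y and Hba-x, summed to 2743, 1378 and 396 TPM.

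Of the 10 genes, 9 reached 1 TPM in all 3 libraries, against 28.7% of all genes in the tables, and Nova1 missed this level in C alone. Elavl4 was the most abundant, followed by Ptbp2, Elavl3, Elavl2, Rbfox2, Ptbp1, Rbfox3, Rbfox1, Nova1 and Nova2. Neighbours in this order kept one order in all 3 libraries, by a mean log2 difference above its SD, in only 2 of 9 cases, Elavl4 over Ptbp2 and Rbfox1 over Nova1. D held the highest TPM of 8 of the 10, against 63.1% of detected genes, and C the lowest TPM of 9 of the 10, against 46.6%. The median coefficient of variation over libraries was 47.0% for the 10 genes and 44.5% for all detected genes.

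**Figure D1:**
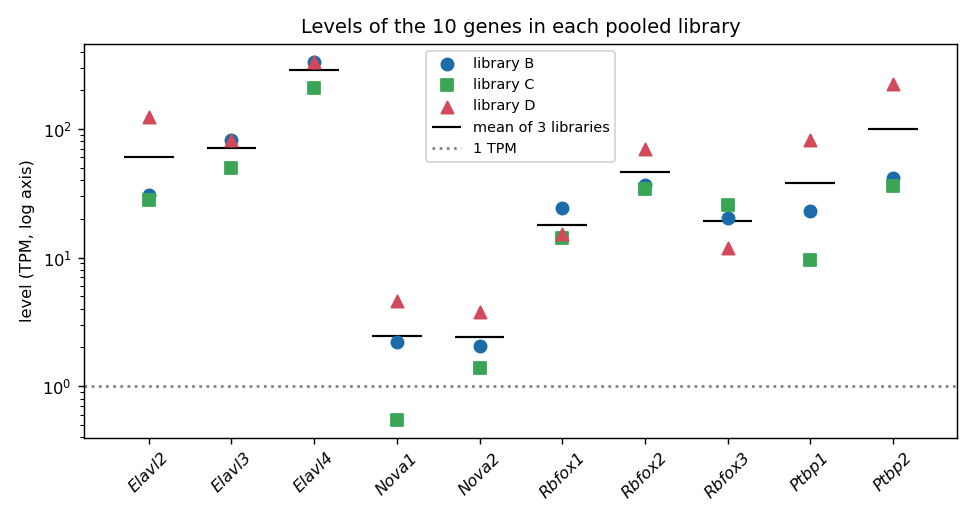
Level of each gene in TPM (log axis) in libraries B, C and D, with the mean of the 3 libraries as a bar and 1 TPM as a dotted line. Elavl4 lies highest in every library, the Nova genes lie lowest, and Nova1 in library C is the 1 point under 1 TPM.

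Elavl4 (ENSMUSG00000028546, chr4:110203722-110351909, minus strand) encodes HuD, a Hu protein of postmitotic neurons. It stood at 330 (B), 208 (C) and 333 (D) TPM, a mean of 290 ± 71.3 TPM (SD, n = 3). These values rested on 16014, 6713 and 13817 reads, and Elavl4 ranked 535th, 776th and 535th among all genes in B, C and D. B and D nearly coincided and C lay lower.

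Elavl3 (ENSMUSG00000003410, chr9:22015005-22052023, minus strand) encodes HuC, a pan-neuronal Hu protein. Its level was 81.5 (B), 49.6 (C) and 81.7 (D) TPM, with a mean of 70.9 ± 18.5 TPM (SD, n = 3). The libraries thus stood in the same pattern as for Elavl4. Elavl3 was 0.247, 0.238 and 0.246 times the level of Elavl4 in B, C and D, a log2 ratio of -2.04 ± 0.028 (SD, n = 3). This was the smallest spread among the 10 paralog ratios computed, in which the other SDs ran from 0.53 to 1.14. By an exact two-sided sign-flip test, p was 0.25, the smallest that 3 libraries can give, and 0.417 after Benjamini-Hochberg adjustment over the 10 ratios.

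Likeness of pattern was measured as the root mean square difference between log2 TPM values centred on each gene's mean over the 3 libraries. By this measure Elavl3 and Elavl4 were each other's nearest gene among 92 candidates, the other members and the related genes listed with them, at 0.022. Of 11896 detected genes, 10 lay as near to Elavl3 and 3 lay as near to Elavl4, each count including the other of the pair. With 3 libraries this is a description only.

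Elavl2 (ENSMUSG00000008489, chr4:91250763-91400785, minus strand), which encodes HuB, did not follow them. It stood at 30.7 (B), 27.9 (C) and 123 (D) TPM, a mean of 60.6 ± 54.3 TPM (SD, n = 3). B and C were close and D lay far above both, so that the mean without D was 29.3 TPM. Elavl2 made up 6.96% (B), 9.78% (C) and 22.9% (D) of the summed TPM of the 3 neuronal Hu genes, while the share of Elavl4 was 74.6%, 72.9% and 61.9%. Elavl4 exceeded Elavl2 in 3 of 3 libraries, by 2.58 ± 1.03 on the log2 scale (SD, n = 3; exact two-sided sign-flip p = 0.25, adjusted 0.417), and by 1.97 with the longest annotated transcript as length. Elavl3 exceeded Elavl2 in B and C and lay below it in D, a log2 ratio of 0.55 ± 1.03 (SD, n = 3). That order depends on the length used, since the counted Elavl2 model has 8313 bases and its longest annotated transcript 4191; with transcript length the mean log2 ratio was -0.44, and without any length it was -0.18.

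Elavl1 encodes HuR, the ubiquitous Hu protein, and served as the paralog outside the neuronal set. Its level was 10.7 (B), 12.7 (C) and 54.8 (D) TPM. The 3 neuronal Hu genes together stood at 41.3 (B), 22.5 (C) and 9.81 (D) times its level, so they were higher in 3 of 3 libraries and least so in D. As a log2 ratio this was 4.38 ± 1.04 (SD, n = 3; exact two-sided sign-flip p = 0.25, adjusted 0.417).

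**Figure D2:**
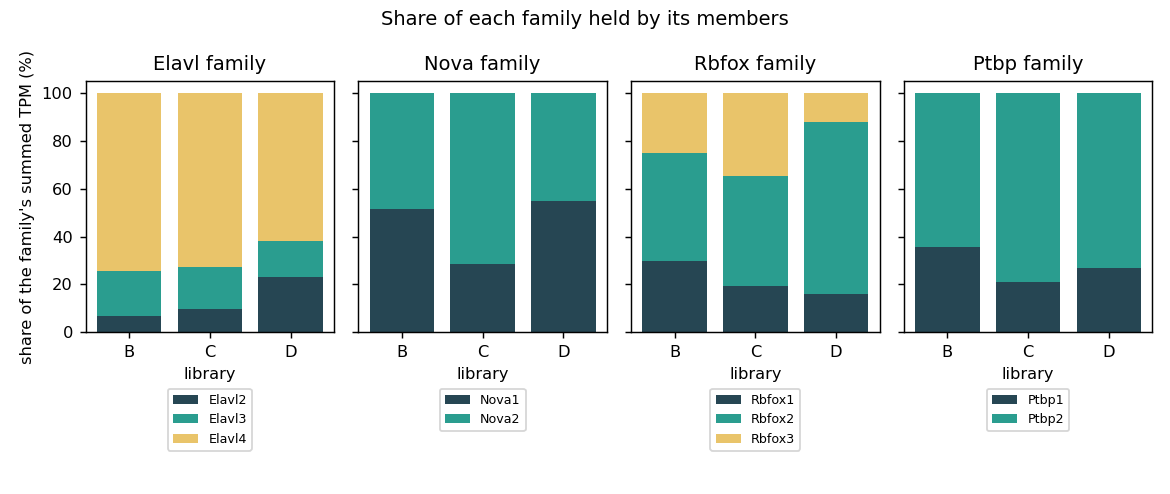
Share of each family's summed TPM held by each member, in percent, for libraries B, C and D (stacked bars). Elavl4 holds 61.9% to 74.6% of the Elavl sum, and Elavl2 and Rbfox2 take larger shares in D than in B or C.

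The Ptbp genes had the highest coefficients of variation of TPM among the members, 106% for Ptbp2 and 100% for Ptbp1. Ptbp2 (ENSMUSG00000028134, chr3:119718742-119783388, minus strand) stood at 41.9 (B), 36.2 (C) and 223 (D) TPM, a mean of 100 ± 106 TPM (SD, n = 3). Reads numbered 1272, 731 and 5788. D lay far above B and C, which were alike, and the mean without D was 39.1 TPM.

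Ptbp1 (ENSMUSG00000006498, chr10:79854427-79864771, plus strand) stood at 23.2 (B), 9.57 (C) and 81.6 (D) TPM, a mean of 38.1 ± 38.2 TPM (SD, n = 3). Here all 3 libraries differed, and the mean without D was 16.4 TPM. Exons of Ptbp1 overlap those of 3 genes on the other strand, and because the library kit does not mark strand, reads in shared bases cannot be told apart. The overlap with Plppr3, a membrane protein gene with 1859, 2391 and 1174 reads, covers 251 bases or 5.30% of the counted length of Ptbp1. The overlap with Gm17134, which had 0 reads in each library, is the largest, at 437 bases or 9.22%. That with E130317F20Rik, at 164, 104 and 165 reads, covers 85 bases or 1.79%.

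The neural paralog exceeded Ptbp1 in 3 of 3 libraries, 1.81-fold (B), 3.79-fold (C) and 2.74-fold (D). On the log2 scale the ratio of Ptbp2 to Ptbp1 was 1.41 ± 0.53 (SD, n = 3; exact two-sided sign-flip p = 0.25, adjusted 0.417). Ptbp2 held 72.2 ± 7.41% of the pair's summed TPM (SD, n = 3). With the longest annotated transcript as the length, 3169 bases for Ptbp1 and 4047 for Ptbp2 against counted lengths of 4740 and 3364, the mean log2 ratio was 0.56 and the share 59.4%. Ptbp3, a paralog also found outside neurons, was at 7.14, 10.7 and 38.5 TPM, and Ptbp1 exceeded it in B and D but not in C, a log2 ratio of 0.87 ± 0.95 (SD, n = 3); with transcript lengths it did so in 3 of 3 libraries, by a mean of 1.33.

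Among the Rbfox genes, Rbfox2 (ENSMUSG00000033565, chr15:77078990-77307053, minus strand), which is also active outside the nervous system, was the most abundant. Its level was 36.4 (B), 33.9 (C) and 69.6 (D) TPM, a mean of 46.6 ± 19.97 TPM (SD, n = 3), with B and C alike and D above them. Rbfox2 exceeded Rbfox1 in 3 of 3 libraries, the log2 ratio of Rbfox1 to Rbfox2 being -1.34 ± 0.80, and exceeded Rbfox3 in 3 of 3, by a log2 ratio of 1.27 ± 1.14 (SD, n = 3; exact two-sided sign-flip p = 0.25, adjusted 0.417 for each). With the longest annotated transcript as length, the ratio of Rbfox2 to Rbfox3 averaged 0.48 and was negative in C, so the order then held in 2 of 3 libraries; with counted lengths and without D it averaged 0.62. Its share of the family's summed TPM was 45% (B), 46% (C) and 72.0% (D).

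Rbfox1 (ENSMUSG00000008658, chr16:6809222-7412479, plus strand) was at 24.2 (B), 14.2 (C) and 15.3 (D) TPM, a mean of 17.9 ± 5.50 TPM (SD, n = 3). In TPM it was the 1 member that was highest in B. Rbfox3 (ENSMUSG00000025576, chr11:118489762-118911597, minus strand) was at 20.2 (B), 25.6 (C) and 11.8 (D) TPM, a mean of 19.2 ± 6.96 TPM (SD, n = 3). In TPM, which includes the shift of D, it was the 1 member that was lowest in D, where 19.2% of detected genes were lowest. The order of Rbfox1 and Rbfox3 was not settled: Rbfox1 was higher in B and D and lower in C, with a mean log2 ratio of -0.07 ± 0.68 (SD, n = 3), which became 0.32 without C. The length of Rbfox3 is also uncertain, at 5818 counted bases and 3150 in the longest annotated transcript, and with transcript lengths Rbfox1 was the lower in 3 of 3 libraries, at a mean log2 ratio of -0.52.

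The Nova genes were the lowest of the families. Nova2 (ENSMUSG00000030411, chr7:18925888-18965319, plus strand) stood at 2.07 (B), 1.37 (C) and 3.77 (D) TPM, a mean of 2.40 ± 1.23 TPM (SD, n = 3), from 156, 69 and 243 reads. Nova1 (ENSMUSG00000021047, chr12:46694517-46818775, minus strand) stood at 2.20 (B), 0.548 (C) and 4.60 (D) TPM, a mean of 2.45 ± 2.04 TPM (SD, n = 3), and its value in C rested on 23 reads. Both were detectable but low, and their order changed between libraries: the log2 ratio of Nova1 to Nova2 was -0.32 ± 0.88 (SD, n = 3) and turned to 0.19 without C. The overlap of Nova2 with Gm26821 on the other strand covers 2652 bases or 31.7% of the counted length of Nova2. Gm26821 had 0 reads in all 3 libraries. How reads in the shared bases were counted is not stated, so whether the Nova2 level lacks such reads was not tested.

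**Figure D3:**
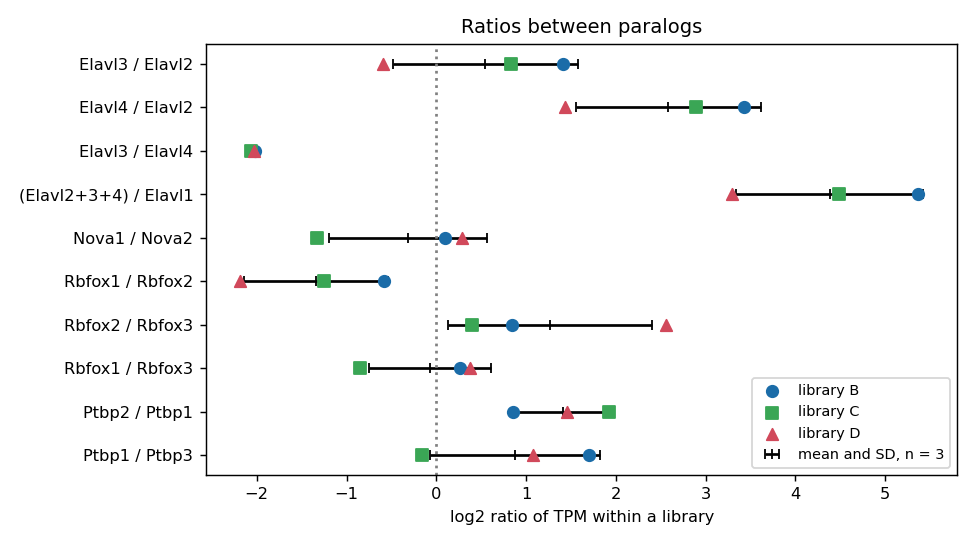
Log2 ratio of TPM between paralogs within each library, with the mean and SD over the 3 libraries; the dotted line marks equal levels. The Elavl3 to Elavl4 ratio falls at nearly 1 place in the 3 libraries, whereas Elavl3 to Elavl2, Nova1 to Nova2, Rbfox1 to Rbfox3 and Ptbp1 to Ptbp3 lie on both sides of the line.

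For the other members, the nearest candidate in pattern was Cpeb4 for Elavl2 (0.075), Raver2 for Rbfox2 (0.016), Matr3 for Ptbp2 (0.105), Hnrnpu for Ptbp1 (0.060) and for Nova1 (0.291), Hnrnph1 for Nova2 (0.065), Srrm4 for Rbfox1 (0.146) and Gap43 for Rbfox3 (0.217). These are root mean square log2 differences over 3 libraries. Between 10 and 491 of the 11896 detected genes, the named candidate included, lay as near to their member.

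The smallest pool, D, was then set against B and C with edgeR's quasi-likelihood test on the counts with TMM scaling. Counts are not divided by gene length, and in plain CPM the shift of D described above was 0.19 in place of 0.65. The ratios from counts still moved with gene length, as described below. No gene of 15727 passed an adjusted p of 0.05 (percent called 0), and 19.4% had an unadjusted p under 0.05. In this fit, which has 1 residual degree of freedom, none of the 10 genes passed, and 4 (Ptbp2, Ptbp1, Elavl2 and Rbfox3) had an unadjusted p under 0.05. DESeq2 called 688 of 11680 genes (5.89%), and 3.47% as higher in D, among which 1 was a member, Ptbp2. P-values here measure the spread between these pools only, with the lone library assumed to vary like the others.

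Ptbp2, at 73.2, 67.4 and 247 TMM-scaled CPM (counts scaled to library size) in B, C and D, had the largest ratio among the members. Its log2 ratio of D over B and C, called the D ratio below, was 1.81 ± 0.41 (approximate SE; edgeR adjusted p = 0.182), and the DESeq2 adjusted p was 0.0468. D was 1.76 above B and 1.87 above C on the log2 scale, so neither library alone carried the value.

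Ptbp1 followed at 1.63 ± 0.58 (approximate SE; edgeR adjusted p = 0.23), from 57.0, 25.1 and 127 TMM-scaled CPM. For this gene the difference from B was 1.16 and that from C 2.34 on the log2 scale. Without the filter on low counts, edgeR called 1534 of 23553 genes (6.51%; 3.96% as higher in D), among them both, with adjusted p of 0.00765 for Ptbp2 and 0.0305 for Ptbp1. The members of the Ptbp pair thus were both above B and C in D. Elavl2 stood at 1.37 ± 0.39 (approximate SE; edgeR adjusted p = 0.2), from 133, 128 and 338 TMM-scaled CPM.

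Rbfox3 had the lowest ratio, -1.66 ± 0.52 (approximate SE; edgeR adjusted p = 0.206), from 61.0, 82.5 and 22.6 TMM-scaled CPM, with D below both other libraries. The log2 ratio was -1.02 for Rbfox1, -0.38 for Elavl4 and -0.37 for Elavl3. It was 0.29 for Rbfox2, 0.43 for Nova2 and 1.05 for Nova1, the last with an approximate SE of 0.82. For Nova1 the value was 2.30 without B and 0.40 without C. On this scale D also lay below both B and C for Rbfox1, Elavl4 and Elavl3. The log2 differences from B and C were -1.32 and -0.64 for Rbfox1, -0.64 and -0.07 for Elavl4, and -0.65 and -0.03 for Elavl3. In all, 6 of the 10 had a positive ratio, with a median of 0.36, and over all 15727 genes 49.5% had one, with a median of -0.02.

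**Figure D4:**
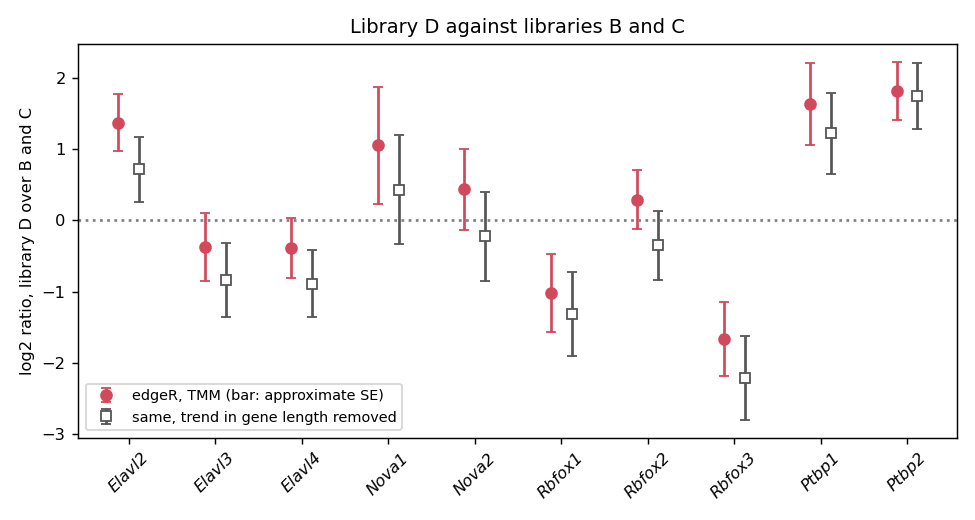
Log2 ratio of library D over B and C for each gene from edgeR (filled circles) and after a smooth trend in gene length was removed (open squares); bars are approximate standard errors. Ptbp2, Ptbp1, Elavl2 and Nova1 lie above 0 in both. Rbfox3, Rbfox1, Elavl4 and Elavl3 lie below 0 in both, whereas Nova2 and Rbfox2 change sign.

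Gene length moved with the D ratio. Over the 15727 genes, Spearman's rho between the ratio and the counted length was 0.404, a description across genes of 1 contrast, and the members were long, with a median of 5603 bases against 3509. Among 1529 genes within 0.25 log2 units of the length of Elavl2, the median ratio was 0.66; among 2926 genes of the length of Ptbp1 it was 0.32 and among 2890 of the length of Ptbp2 0.02. With a smooth trend in log length removed, Ptbp2 kept a ratio of 1.75, Ptbp1 had 1.22, Elavl2 0.71 and Rbfox3 -2.21. Nova2 and Rbfox2 turned to -0.23 and -0.35, so that 4 of the 10 then had a positive ratio and the median was -0.29. Over all 15727 genes, 7425 then had a positive ratio, with a median of -0.08.

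**Figure D5:**
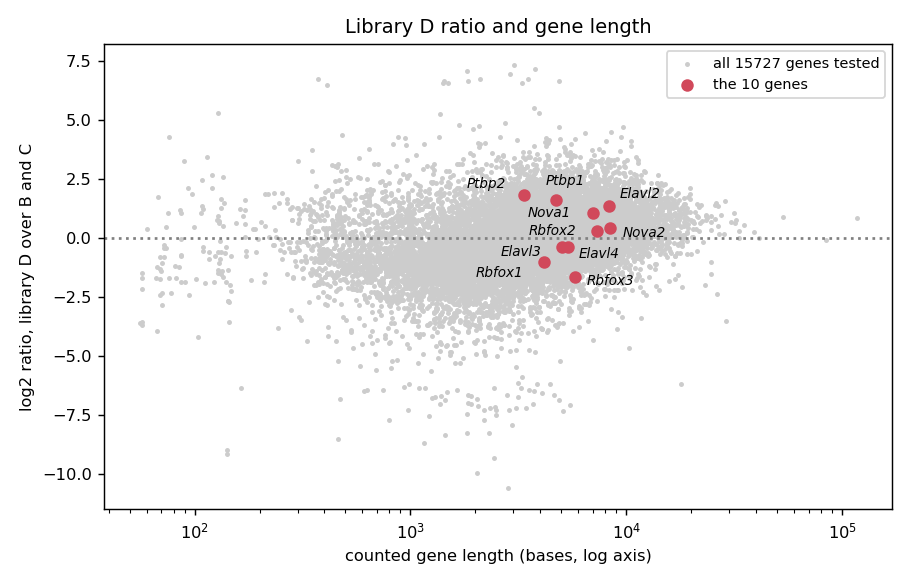
Log2 ratio of library D over B and C against counted gene length (bases, log axis) for all 15727 genes tested (grey) and the 10 genes (red). Longer genes tend to have higher ratios, and Ptbp2, at 3364 bases, lies well above the genes of like length, whose median is 0.02.

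Markers of other cells moved in the same comparison. Of 10 glial markers 8 had a positive D ratio (median 1.10), among them Ednrb at 2.07, and of 11 cycling-cell markers 8 did (median 0.66); none passed the adjusted threshold in edgeR, while DESeq2 called 3 glial and 0 cycling markers as higher. Fabp7, the most abundant glial marker, did not rise in D, with 1551 (B), 699 (C) and 927 (D) CPM. Neuron markers had a median of -0.64, with 3 of 10 positive, and Tubb3 stood at -1.26. In CPM, Pou4f1, Dcx and Map2 were higher in D than in B and C, Pou4f1 at 507 (B), 283 (C) and 1194 (D). Sympathetic markers, led by Chga and Dbh, were negative in 6 of 6 cases, and erythroid markers in 7 of 7, with 3 and 4 called by DESeq2. The mesenchyme list, led by Col1a2 and Col3a1, was positive in 3 of 6, skeletal muscle, led by Tnnt1 and Acta1, in 3 of 6 tested, macrophage, led by C1qb and Cd68, in 2 of 6, and endothelium, led by Esam and Pecam1, in 2 of 6. The part of these cells in the ratios of Ptbp1, Ptbp2, Elavl2 and Rbfox3 was not tested.

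Related genes were described list by list. Both paralogs outside the members, Elavl1 and Ptbp3, had positive D ratios, 1.52 and 1.399. Of 10 PTB partners and genes of the REST circuit, which silences neuronal genes outside neurons, 8 had a positive ratio (median 0.67), and 6 with the length trend removed (median 0.37). Matr3, whose nuclear protein binds PTB, was at 23.3, 17.9 and 132 TPM in B, C and D, and its D ratio of 1.98 had a DESeq2 adjusted p of 0.0269. Ctdsp2, a small C-terminal domain phosphatase, followed at 11.9, 6.85 and 29.9 TPM, Raver1, a PTB co-repressor, at 10.4, 7.95 and 19.1 TPM, and Mir124-2hg, a host gene of the miRNA that targets Ptbp1, at 8.35, 12.8 and 15.3 TPM.

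Of 22 other tissue-regulated splicing factors, 17 were detected, and of the 20 tested 10 had a positive D ratio (median 0.13), or 7 with a median of -0.22 once the length trend was removed. Qk, a STAR-family regulator prominent in glia, was at 8.99, 8.02 and 86.5 TPM in B, C and D, with a D ratio of 2.65 and a DESeq2 adjusted p of 0.0016. Mbnl2, a muscleblind regulator, was at 24.1, 27.4 and 41.5 TPM. Khdrbs3, another STAR protein, was at 15.8, 24.4 and 32.4 TPM. Srrm4, the activator of neuronal microexons, stood at 29.8, 14.7 and 20.3 TPM, highest in B and lowest in C as Rbfox1 was. Rbm20 and Rbm24, regulators of muscle splicing, and Mbnl3 stayed under 1 TPM in every library, and the epithelial regulator Esrp2 had 0 reads in each, which allows up to 0.166, 0.257 and 0.143 CPM in B, C and D.

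General splicing factors were on the whole more abundant than the members, with median levels of 74.8, 59.9 and 122 TPM in B, C and D against 27.5, 26.8 and 75.6 TPM for the 10 genes. Hnrnpa2b1 led the 21 core hnRNP and SR genes at 734 ± 449 TPM (SD, n = 3), followed by Srsf7 at 711 ± 362, Hnrnpc at 362 ± 83.6 and Hnrnpk at 305 ± 264 TPM. D ratios were positive in 15 of 20 tested (median 0.30), and in 11 with the length trend removed (median 0.28). Srsf1 had 2, 0 and 3 reads in B, C and D, which is listed here as a value only.

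Of 16 other neuronal RNA-binding proteins 15 had a positive D ratio (median 1.08), or 13 with the length trend removed (median 0.64). The lone negative one in the first count, outside the naming rule and picked after its value was seen, was Fxr2 at -1.18. Fxr1, of the fragile X family, was the most abundant at 63.7 ± 26.4 TPM (SD, n = 3). Igf2bp1, a message-binding protein of embryonic cells, was at 14.0, 10.5 and 90.5 TPM, with a DESeq2 adjusted p of 0.0141. Igf2bp3 was at 41.3 ± 19.6 TPM (SD, n = 3).

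Known targets of these proteins were read as gene levels, which say nothing of exon use. Gap43, a growth cone gene whose message HuD stabilises, was at 5163, 4869 and 3163 TPM in B, C and D, with a D ratio of -1.37. Agrn, whose exons Nova regulates, was at 19.1, 16.3 and 36.9 TPM. D ratios were positive for 9 of 12 targets (median 0.33) and for 4 of 12 with the length trend removed (median -0.29).

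The promoters of Elavl3 and Elavl4 are shown because the levels of these genes moved together across the libraries. They are RefSeq windows on GRCm38.p6 from 250 bases before to 50 after the annotated start, and capitals mark the E-box CANNTG, the core bound by basic helix-loop-helix factors, which reads the same on both strands. The window of Elavl3 is chr9:22051974-22052273 and that of Elavl4 chr4:110351862-110352161, both on the minus strand and printed 5′ to 3′.
Elavl3: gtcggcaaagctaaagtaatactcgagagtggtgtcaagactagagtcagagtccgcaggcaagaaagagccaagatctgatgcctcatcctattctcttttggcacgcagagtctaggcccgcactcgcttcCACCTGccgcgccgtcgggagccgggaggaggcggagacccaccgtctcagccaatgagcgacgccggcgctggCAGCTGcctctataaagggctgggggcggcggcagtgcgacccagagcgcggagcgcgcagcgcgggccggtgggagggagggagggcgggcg
Elavl4: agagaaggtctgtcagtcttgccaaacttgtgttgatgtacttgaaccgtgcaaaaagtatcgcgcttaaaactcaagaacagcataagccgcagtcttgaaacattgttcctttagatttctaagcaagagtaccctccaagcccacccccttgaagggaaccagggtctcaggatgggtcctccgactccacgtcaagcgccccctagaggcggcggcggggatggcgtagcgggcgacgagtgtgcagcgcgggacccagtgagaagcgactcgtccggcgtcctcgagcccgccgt
Elavl3 has 1 annotated start with a window and Elavl4 has 4, of which the window nearest the start of the counted gene is shown. The other Elavl4 windows were not counted. The Elavl3 window holds 2 matches and the shown Elavl4 window holds 0, and 72.3% of 32851 promoter windows of this length hold at least 1. CpG dinucleotides numbered 29 in Elavl3 and 23 in Elavl4, against a median of 7 over all windows. Of the 10 members 9 had a window in the table; Ptbp1 had 3 E-box matches and 22 CpG, Ptbp2 had 0 and 36. A match is a description of the letters only.

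The spread between pools was also read gene by gene. Over 13182 genes, edgeR's biological coefficient of variation was 0.512 in common. Gene by gene, its median was 0.491 over all genes and 0.508 over the members. Rbfox2 at 0.452, Elavl4 at 0.46 and Elavl3 at 0.465 lay at the 7.46th, 15.2th and 21.0th percentile of all genes. Nova1 at 0.584, Ptbp1 at 0.571 and Ptbp2 at 0.561 lay at the 89.6th, 87.5th and 85.2th percentile. Without library D the common value was 0.383, and the gene-by-gene medians were 0.361 over all genes and 0.367 over the members.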

How the data were processed

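The authors deposited raw read counts, CPM and RPKM per Ensembl gene for each library. Recomputation from the deposited counts gave the same CPM (count over library total) and the same RPKM (CPM over kilobases of gene length). Per the submitters' processing notes, the tools were Subread and featureCounts 1.4.5 and the build GRCm38.p2, with no roles given; annotation release, strand setting and read filters are not stated there. TPM was computed from the deposited counts and lengths. Symbols were matched for 40254 of 41388 identifiers through GENCODE M21.

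Library D was compared with B and C in edgeR 4.0.16 (filterByExpr, TMM, quasi-likelihood test, Benjamini-Hochberg threshold 0.05), with DESeq2 1.42.0 and a length trend from mgcv 1.9.3 as alternatives; standard errors are approximate, from the ratio and its F statistic. Ratios were tested by exact two-sided sign flips. The spread was fitted on the 3 libraries as 1 group. Labels do not say whether sorting was shared, and the libraries are pools from different mothers. A count of 0 allows up to 3 counts; such limits cover counting error only, since the libraries carry no molecular identifiers and PCR copies are counted as reads.

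The members and lists were chosen with earlier results of these data known. Named genes were all 10 members, the 4 with the highest mean TPM and any under 1 TPM in every library of each related list, the 2 highest of each marker list, and the nearest gene in pattern. Results for some genes this rule names are not given here.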

Additional observations from a re-analysis of the deposited data

How the results depend on the processing

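Of 214 recomputed values for 39 results, 178 kept their direction and side of the threshold or moved by less than the spread, 27 moved further, 3 passed a threshold they had missed and 6 changed sign. Counts of genes and coefficients of variation were judged by a fixed fold limit in place of a spread or threshold. Levels in CPM and in RPKM were set against TPM levels directly, so for levels this tally partly reflects a change of unit. Without gene length, in CPM, the median member level read 105 in place of 42.4 TPM. The mean log2 ratios became -0.18 for Elavl3 to Elavl2, -2.14 for Elavl3 to Elavl4 and -2.17 for Rbfox1 to Rbfox2. With the longest transcript as length, they were -0.44 for Elavl3 to Elavl2, -2.41 for Elavl3 to Elavl4 and 0.56 for Ptbp2 to Ptbp1, and Ptbp2 held 59.4% of its pair; these follow from the lengths. The median member level was 17.5 as RPKM with TMM library sizes and 26.1 TPM without D. Leaving out a library in turn, Nova1 to Nova2 ranged from -0.62 to 0.19 and Rbfox1 to Rbfox3 from -0.30 to 0.32. The number of genes called in D was 0 in edgeR with TMM, 8 with DESeq2's size factors, 14 with the length trend removed, 1534 of 23553 with no filter and 688 in DESeq2; the cause was not tested. With the length trend removed, Nova2 and Rbfox2 had D ratios of -0.23 and -0.35. With members detected at 0.5 TPM the count was 10, and at 5 TPM it was 8. No paired analysis was possible because the libraries form 1 group. Depth limits Nova1 in C most, at 23 reads.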
